A study of Mus musculus with 23 samples.

Results

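A set of 10 genes that mark the inhibitory interneurons of the cerebral cortex or their classes was followed in bulk RNA-seq of the mouse orbitofrontal cortex. They were taken by symbol from a list of names: Gad1, Gad2, Slc32a1, Pvalb, Sst, Vip, Lhx6, Adarb2, Reln and Npy. Their Entrez identifiers are 14415, 14417, 22348, 19293, 20604, 22353, 16874, 94191, 19699 and 109648, in that order. These were 10 of the 27178 genes of the normalized count table, and all 10 were among the 16385 genes that passed the filter on low values. Male wild-type C57BL/6J mice, with an age given as 8 weeks, received an AAV6 virus in the orbitofrontal cortex on day 0, 23 libraries in all. The virus was AAV6-GFAP-GFP or AAV6-GFAP-ZBTB7A with GFP, and the GFAP promoter is active in astrocytes, the cells at which the vector is aimed. Subthreshold social defeat, a short exposure to an aggressive mouse, took place on day 21, behavioural tests ran on days 22 to 27, and infected tissue was taken on day 28. There were 5 libraries of ZBTB7A control, 5 of ZBTB7A stress, 5 of GFP control and 8 of GFP stress, where control means no defeat by the stress label, although another label lists the defeat for every mouse. Libraries are called by group and title number.

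Cortical interneurons release GABA, which Gad1 and Gad2 make from glutamate and which Slc32a1 loads into vesicles. These 3 genes are shared by GABA neurons in general, including the medium spiny projection neurons of the neighbouring striatum. Interneurons born in the medial ganglionic eminence of the embryo keep the transcription factor Lhx6 and mature into cells with parvalbumin (Pvalb) or somatostatin (Sst). Those from the caudal ganglionic eminence express Adarb2, an RNA-binding protein of the adenosine deaminase family, and include the cells with vasoactive intestinal peptide (Vip). Reln, a secreted glycoprotein, and Npy, a neuropeptide, mark cells of both origins.

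Promoter sequences are shown for the 4 genes whose levels followed a tissue gradient described further on (Gad2, Slc32a1, Pvalb and Vip) and for Sst, whose cyclic AMP response element is a textbook one and whose level did not pass that test. Each run is the 150 bases before the annotated start in RefSeq (GRCm38.p6), read 5′ to 3′ on the gene's strand. Capitals mark the cyclic AMP response element TGACGTCA, its core TGACG on either strand, or TATAAA on either strand.
Gad2, chr2:22622177-22622326, plus strand: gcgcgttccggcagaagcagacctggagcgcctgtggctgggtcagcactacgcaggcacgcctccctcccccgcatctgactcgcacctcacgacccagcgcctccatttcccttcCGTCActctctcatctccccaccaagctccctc
Slc32a1, chr2:158610608-158610757, plus strand: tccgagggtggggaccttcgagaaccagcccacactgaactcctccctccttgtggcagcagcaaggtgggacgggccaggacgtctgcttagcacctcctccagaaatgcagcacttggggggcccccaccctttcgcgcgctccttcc
Pvalb, chr15:78206401-78206550, minus strand, the first of 2 listed starts: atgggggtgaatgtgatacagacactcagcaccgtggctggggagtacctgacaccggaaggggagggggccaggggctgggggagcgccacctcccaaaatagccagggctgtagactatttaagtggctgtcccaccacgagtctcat
Sst, chr16:23890845-23890994, minus strand: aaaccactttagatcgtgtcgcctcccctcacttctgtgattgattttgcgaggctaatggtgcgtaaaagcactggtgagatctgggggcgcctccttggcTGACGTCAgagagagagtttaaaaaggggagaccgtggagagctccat
Vip, chr10:5639068-5639217, plus strand: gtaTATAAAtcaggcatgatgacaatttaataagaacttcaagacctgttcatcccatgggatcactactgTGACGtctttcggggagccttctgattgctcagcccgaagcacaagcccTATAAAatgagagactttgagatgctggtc
The full element, which lies in the Sst promoter 48 bases before the start, was held by 1.79% of 32851 RefSeq promoter windows of 300 bases, and by no other of the 10 genes. Its core, which overlaps the full element, was held by 20.8% of windows, and among these 10 genes by Gad2, Sst and Vip. TATAAA was held by 13.6% of windows, among these genes by Gad1, Vip and Lhx6, and the homeobox core TAATTA by 5.29%, among them Adarb2 alone of the 10 genes. Gad2 and Slc32a1 shared none of these letter strings in the windows searched. A match is a description of sequence only.

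Reads recovered from the normalized counts came to 12.5 to 51.9 M per library with a median of 22.7 M, and each of the 10 genes had at least 102 reads in every library. The libraries labelled ZBTB7A did not have more Zbtb7a (3716 ± 247 normalized counts in ZBTB7A control and 3744 ± 173 in ZBTB7A stress, against 3834.5 ± 629 in GFP control and 3934 ± 251 in GFP stress, SD), so these groups are named by their label alone. Gfap, the gene of the virus's promoter, was at 11907 ± 5436 and 11949.9 ± 5188 in ZBTB7A control and ZBTB7A stress, and at 11492 ± 8694 and 6819 ± 3293 in GFP control and GFP stress. All 12 cortical excitatory neuron genes were well above 0 in every library, at 94.4 normalized counts or more. Their level (mean of their centred log2 values) was -1.14 in ZBTB7A control 6 and from -0.51 to 0.42 in the other libraries. ZBTB7A control 6 also had the highest level of the septal genes, 1.84. Genes of striatal neurons were unequal between libraries. The level of 17 striatal neuron genes (mean of their centred log2 values) ran from -1.20 to 2.09 in ZBTB7A control, from 0.12 to 1.61 in ZBTB7A stress, from -0.36 to 0.98 in GFP control and from -2.50 to 0.63 in GFP stress. Among the 17, Isl1 was at 0 in at least 1 GFP stress library. There were 5 libraries far from the median level, GFP stress 5, 12, 20 and 21 on the low side and ZBTB7A control 6 on the high side. Results are therefore given with and without them, or with this level as a covariate. The level also differed between the groups, so a fit with this covariate cannot fully separate group from level. In bulk tissue, fewer cells of a type and less RNA per cell cannot be told apart. The labels do not say that every library came from a separate mouse, so p-values measure the spread between libraries.

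All 10 markers were readily measured, and Sst gave the most normalized counts per kilobase of exon. On this scale Sst stood at 6441 ± 929 (SD, n = 23), Npy at 2815 ± 492.7, and Slc32a1 at 1712 ± 671. Gad1 followed at 1193 ± 200.3, Gad2 at 1018 ± 334 and Pvalb at 777 ± 273. Vip stood at 179 ± 62.6, Lhx6 at 124 ± 12.5, Reln at 104 ± 13.8 and Adarb2 at 23.8 ± 4.11. The intervals of mean ± SD overlapped between neighbours in this order, except between Sst and Npy, between Pvalb and Vip, and between Reln and Adarb2. The length is that of all annotated exons together, so a gene with long rarely used exons comes out low.

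The markers differed widely in how much they varied from library to library. Lhx6 had the narrowest range, with a highest value 1.51 times its lowest, followed by Sst and Reln (1.69 and 1.69), Gad1 (1.76), Adarb2 (2.13) and Npy (2.27). Gad2 (2.88), Slc32a1 (3.89), Vip (4.77) and Pvalb (5.63) spread most. The paired enzymes of GABA synthesis thus had unlike ranges, as did Sst and Pvalb, the principal classes of the Lhx6 lineage. ZBTB7A control 6 had the highest striatal level and the lowest cortical excitatory neuron level. It was the lowest of all 23 libraries for Pvalb, Sst, Vip, Adarb2 and Npy, and the highest for Gad2, Slc32a1 and Reln.

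**Figure D1:**
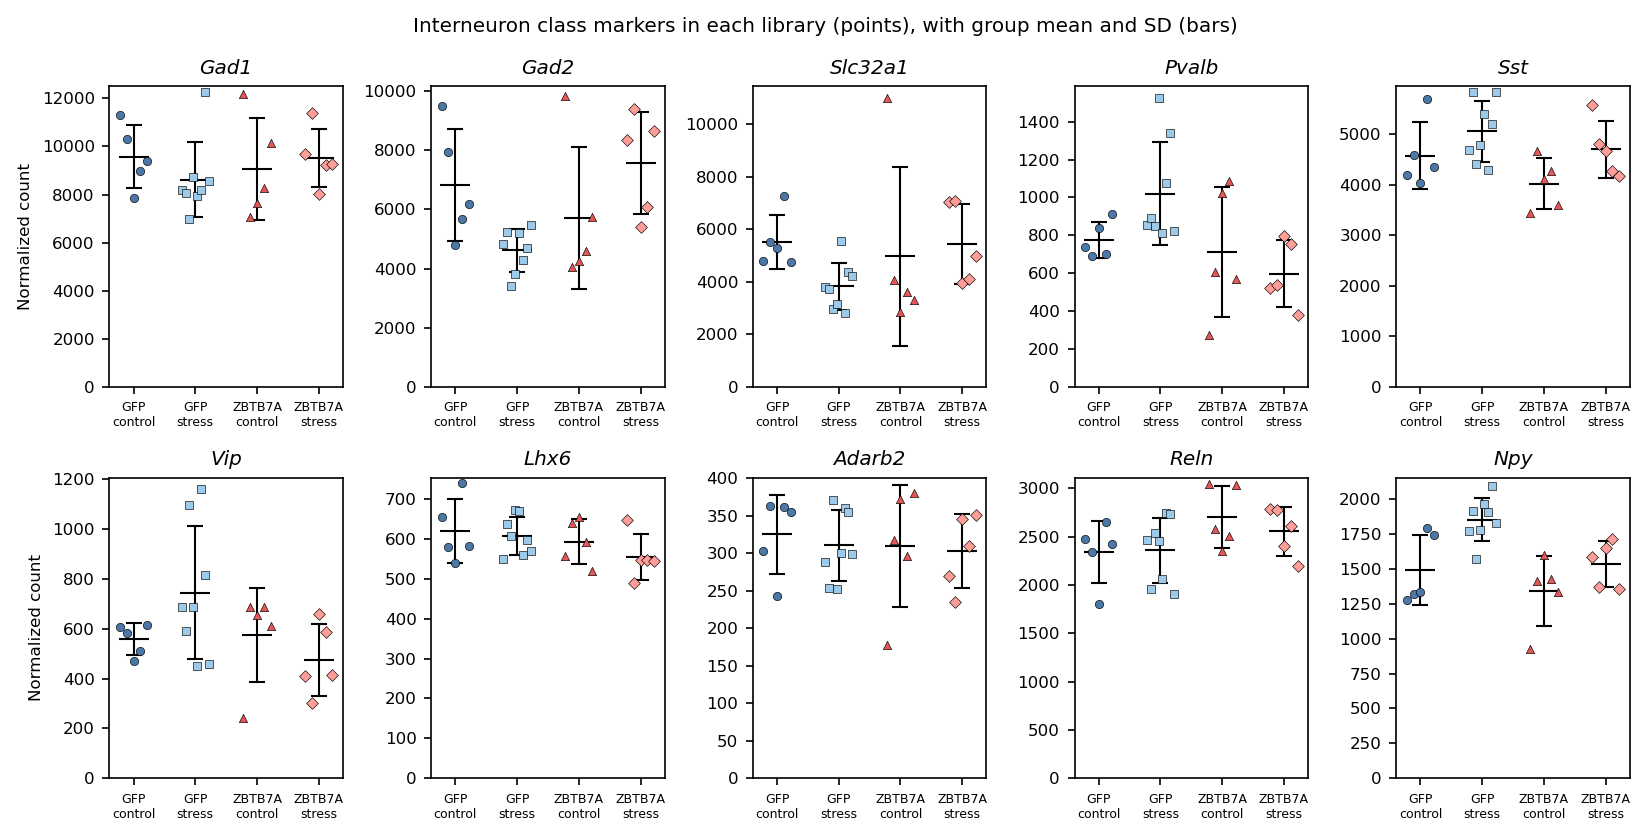
Normalized counts of the 10 markers in each of the 23 libraries (points) by group, with the group mean and SD (bars). Pvalb in ZBTB7A stress lies wholly below GFP stress, and in ZBTB7A control 1 library, number 6, stands far from the others for Gad2, Slc32a1 and Vip.

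No group difference of any of the 10 markers passed the test. In limma fits over all 16385 genes, 0 of 10 markers passed an adjusted p of 0.05 in each of the 4 comparisons and in the interaction, against 0% of all genes (percent called 0 in each). Before adjustment, a p under 0.05 was reached by 284 genes (1.73%) between viruses without stress, 2635 (16.1%) between viruses with stress, 1839 (11.2%) between stress and control under GFP, 272 (1.66%) under ZBTB7A and 1216 (7.42%) in the interaction. edgeR on the recovered reads called 0 genes in all 5, and DESeq2 called 0, 46, 39, 1 and 3, none of them one of the 10. The 4 comparisons share their groups pairwise, so their values are set side by side and are not independent of each other.

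**Figure D2:**
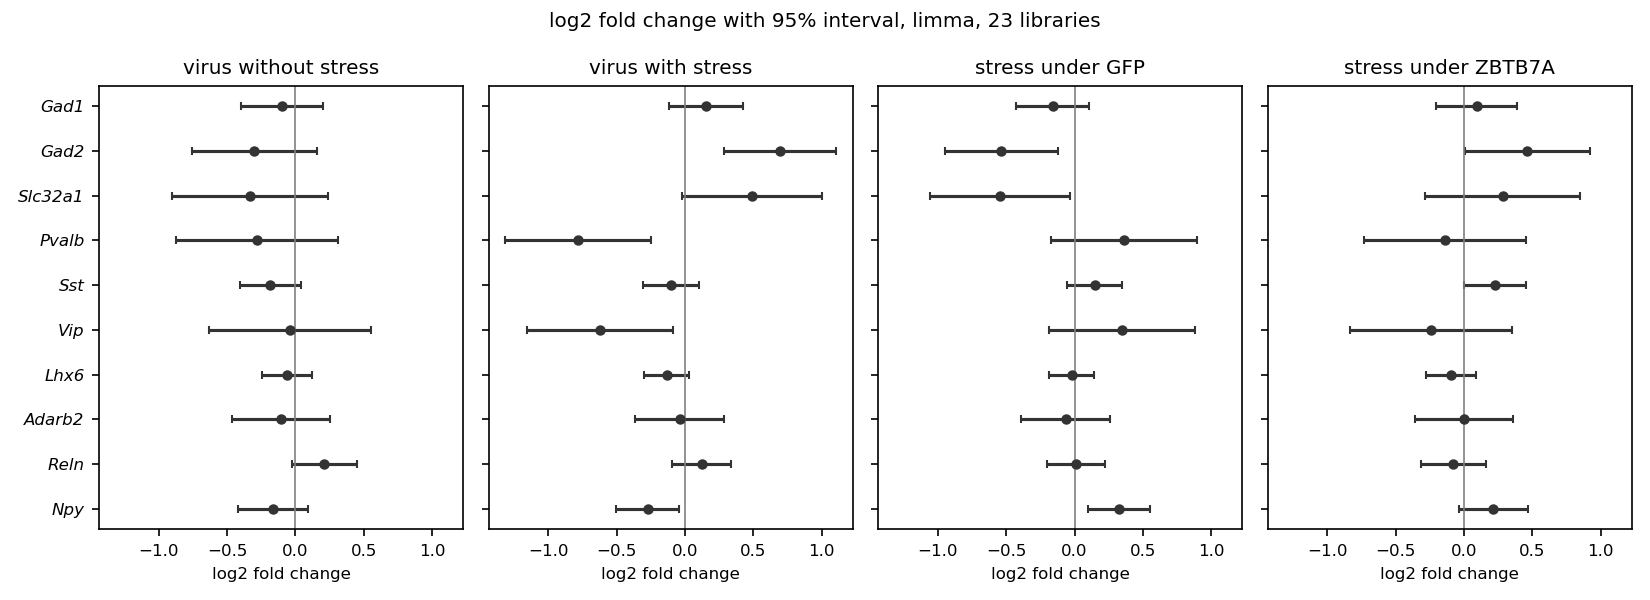
The log2 fold change of each marker (x axis, points) with its 95% interval (bars, limma) in the 4 group comparisons. Gad2 and Pvalb lie farthest from 0 in the virus comparison under stress, at 0.70 and -0.78, and no point passed after adjustment over all genes.

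The comparison of ZBTB7A stress with GFP stress asks how the markers differed between the viruses in defeated mice. It includes any difference between the viruses without stress, and the response to defeat is compared by the interaction further on. Here Gad2 and Slc32a1 had the higher means in ZBTB7A stress, Pvalb and Vip the lower ones, and none passed. Gad2, the synaptic form of the GABA-making enzyme, was at 8342, 9406, 5394, 6095 and 8648 normalized counts in the 5 ZBTB7A stress libraries, and from 3421 to 5469.9 with a median of 4764 in the 8 of GFP stress. Only the ZBTB7A stress library number 17 fell within the GFP stress range. The means were 7577 ± 1735 and 4624 ± 725 (SD), with a log2 fold change of 0.70 ± 0.20 (SE, 95% interval 0.29 to 1.11, adjusted p = 0.183). Gad1, the form that makes most of the cell's GABA, was at 9668, 11395, 8031, 9237 and 9265 in ZBTB7A stress and from 6970.2 to 12249.7 with a median of 8187 in GFP stress. Its groups overlapped across most of their range, and the log2 fold change was 0.15 ± 0.13 (adjusted p = 0.550). Slc32a1, the vesicular GABA transporter, was at 7052, 7063, 3942, 4107 and 4992 in ZBTB7A stress and from 2822 to 5552 with a median of 3770.2 in GFP stress. Libraries 7 and 9 of ZBTB7A stress stood above every GFP stress library and the other 3 lay among them, for a log2 fold change of 0.49 ± 0.25 (adjusted p = 0.325).

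Pvalb, the calcium buffer of fast-spiking interneurons, was the one marker whose ZBTB7A stress and GFP stress libraries did not overlap. It was at 523, 537, 799, 753 and 377 in ZBTB7A stress and from 809.9 to 1526 with a median of 872 in GFP stress, and 1.00% of tested genes were separated in this way. The means were 598 ± 175 and 1020.5 ± 272, a log2 fold change of -0.78 ± 0.26 (95% interval -1.31 to -0.25, adjusted p = 0.198). The gap between the groups was narrow, at 799 against 809.9. Vip, the peptide of interneurons that inhibit other interneurons, was at 411, 302, 660.2, 588 and 412 in ZBTB7A stress and from 452 to 1159.8 with a median of 685 in GFP stress. Its 3 lowest ZBTB7A stress libraries, 7, 9 and 26, lay under every GFP stress library, and the log2 fold change was -0.62 ± 0.26 (adjusted p = 0.265). Npy was at 1582, 1373, 1650.0, 1711 and 1356 against a GFP stress range from 1569 to 2095 with a median of 1867, with a log2 fold change of -0.27 ± 0.11 (adjusted p = 0.256).

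Neither the lineage genes nor Sst or Reln passed between these groups. Lhx6 was at 646, 489, 547, 546 and 543 in ZBTB7A stress and from 548 to 672 with a median of 602 in GFP stress. All but library 7 lay below the lowest GFP stress value, for a log2 fold change of -0.13 ± 0.08 (adjusted p = 0.392). Adarb2 had means of 302 ± 49.3 and 310.4 ± 47.1 and a log2 fold change of -0.04 ± 0.16. Sst, the peptide of dendrite-targeting interneurons, had means of 4699 ± 561 and 5049.8 ± 602 and a log2 fold change of -0.10 ± 0.10 with a 95% interval of -0.31 to 0.10. Reln had means of 2553 ± 253 and 2360.0 ± 338 and a log2 fold change of 0.12 ± 0.10 with a 95% interval of -0.09 to 0.34.

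Title numbers pass through the groups 3 times, in runs of 8, 7 and 8 libraries with 1 to 3 of a group in each. Within the runs the Gad2 difference under stress was 1.00, 0.27 and 0.60, that of Slc32a1 1.02, -0.08 and 0.28, that of Pvalb -0.70, -0.48 and -0.99 and that of Vip -1.11, 0.25 and -0.62. Gad2 and Pvalb thus kept their sign in each run, while Slc32a1 and Vip turned in the middle one. Limma with array weights, which count a scattered library less, called 5 of the 10 markers against 14% of all genes. These were Gad2 (0.70, adjusted p = 0.00980), Slc32a1 (0.55, adjusted p = 0.0348), Pvalb (-0.84, adjusted p = 0.0185), Vip (-0.68, adjusted p = 0.0314) and Npy (-0.26, adjusted p = 0.0385). With array weights and the striatal level together, 0 of the 10 and 1 gene in all passed.

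The striatal level moved with these differences. In ZBTB7A stress against GFP stress all 17 striatal neuron genes stood above 0, with a median log2 fold change of 1.87 against 0.01 over all genes, and the level differed by 1.93 overall and by 1.06 to 2.19 within the runs. All 6 oligodendrocyte genes were also above 0 (median 0.63), as were all 6 septal genes (median 0.79) and 6 of 8 choroid plexus genes (median 0.49). All 8 olfactory bulb genes (median -0.67) and 11 of 12 cortical excitatory neuron genes (median -0.43) were below 0. With the striatal level as a covariate the log2 fold change was 0.26 for Gad2, -0.10 for Slc32a1, -0.18 for Pvalb and 0.03 for Vip (adjusted p = 1.00 for each). That of Npy was -0.16, and Adarb2 turned to 0.19. Sst (-0.19), Lhx6 (-0.12) and Reln (0.16) moved by less than 0.1. The level itself differed between these groups, so in the covariate fit virus and striatal level cannot be fully told apart. Without the 5 far libraries, the values were 0.52 for Gad2, 0.30 for Slc32a1, -0.55 for Pvalb, -0.24 for Vip and -0.29 for Npy.

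**Figure D3:**
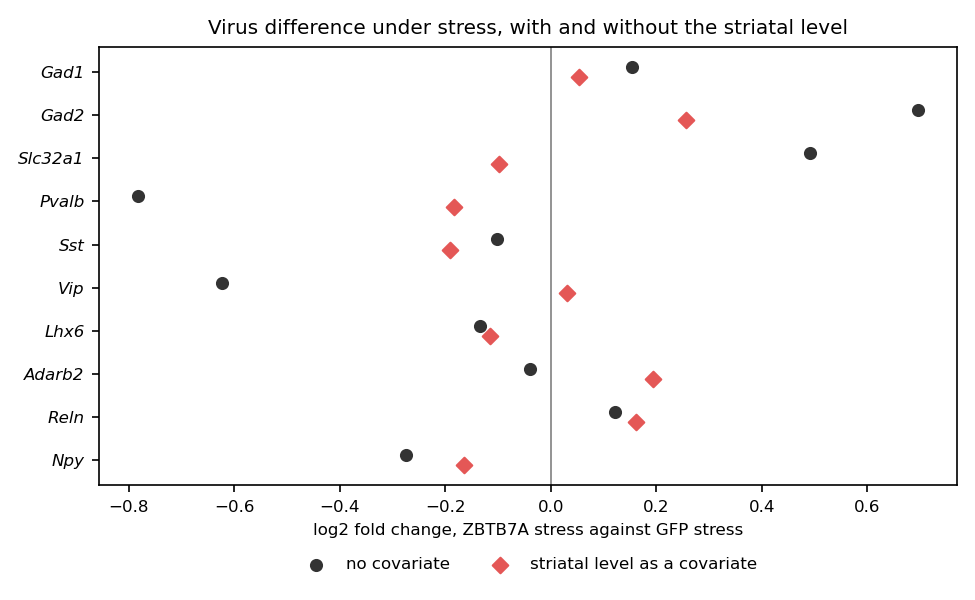
The log2 fold change of each marker between ZBTB7A stress and GFP stress (x axis), without a covariate (circles) and with the striatal level as a covariate (diamonds). The diamonds of Gad2, Slc32a1, Pvalb and Vip lie nearer 0 than their circles, and those of Sst, Adarb2 and Reln lie farther from it.

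Defeat under GFP asks what the stress did without the ZBTB7A virus. Gad1, Gad2, Slc32a1, Pvalb, Sst, Vip and Npy had the opposite sign to the virus comparison under stress, and Lhx6, Adarb2 and Reln the same sign. The GFP stress libraries enter these comparisons with opposite signs, so the turn of sign is not a separate result. GFP control was the shared reference of stress against control under GFP and of the virus comparison without stress. Gad2 was at 9511, 7934, 4805, 5683 and 6193 in GFP control, where library 10 alone lay within the GFP stress range and libraries 1 and 2 were the highest. The log2 fold change was -0.54 ± 0.20 (adjusted p = 0.369). Slc32a1 was at 4785, 5522, 5265, 7262 and 4758 in GFP control, and its log2 fold change was -0.54 ± 0.25 (adjusted p = 0.425). All but 1 of the GFP stress libraries lay below the lowest GFP control library. Gad1 was at 11309.9, 10330.2, 7839, 8975 and 9409 and differed by -0.16 ± 0.13 (adjusted p = 0.646).

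Npy was at 1273, 1319, 1337, 1791 and 1738 in GFP control, and from 1569 to 2095 with a median of 1867 in GFP stress. In GFP control, libraries 1, 2 and 10 lay under every GFP stress library and the other 2 among them, for a log2 fold change of 0.32 ± 0.11 (95% interval 0.10 to 0.55, adjusted p = 0.345). Pvalb was at 741, 691, 837, 704 and 914 in GFP control, with 3 of 5 below the lowest GFP stress library, and differed by 0.36 ± 0.26 (adjusted p = 0.593). Vip was at 606, 583, 469, 511 and 615, inside the GFP stress range, and differed by 0.35 ± 0.26 (adjusted p = 0.615). Sst differed by 0.15 ± 0.10, Lhx6 by -0.02 ± 0.08, Adarb2 by -0.07 ± 0.16 and Reln by 0.01 ± 0.10, with groups that overlapped. No marker's groups were separate, against 0.372% of all genes.

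Within the runs, the stress difference under GFP was -0.97, -0.23 and -0.37 for Gad2, -0.56, -0.57 and -0.35 for Slc32a1, 0.43, 0.27 and 0.16 for Npy, 0.27, 0.53 and 0.21 for Pvalb and 0.36, 0.18 and 0.30 for Vip, with 1 sign in all runs for each. The striatal level had means of -0.98 in GFP stress and 0.52 in GFP control, with differences of -1.18, -1.19 and -2.29 in the runs, and all 17 of its genes were below 0. Also below 0 were all 6 oligodendrocyte genes (median -0.71), all 6 septal genes (median -1.22) and 7 of 8 choroid plexus genes (median -2.14). All 8 olfactory bulb genes (median 0.86) and 11 of 12 cortical excitatory neuron genes (median 0.36) were above 0. The part of these other genes in the marker values was not tested. With the striatal level as a covariate, Gad2 stood at -0.19, Slc32a1 at -0.08, Pvalb at -0.11, Vip at -0.16, Npy at 0.24 and Sst at 0.22. Without the 5 far libraries Gad2 stood at -0.35, Slc32a1 at -0.35, Pvalb at 0.13, Vip at -0.04 and Npy at 0.34. Array weights called Gad2 (-0.63, adjusted p = 0.0405) and Npy (0.34, adjusted p = 0.0441), 2 of 10 markers against 4.08% of all genes, and neither once the striatal level was added.

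Without stress, ZBTB7A control against GFP control asks what the virus alone went with. Of the 10 markers, 9 had a log2 fold change below 0, with a median of -0.13 against -0.01 over all genes, and each had an adjusted p of 1.00. Of all 16385 genes, 9055 were below 0. So were all 17 striatal neuron genes (median -0.37), all 6 oligodendrocyte genes (median -0.29), all 6 septal genes (median -0.69) and 7 of 8 choroid plexus genes (median -1.65), whose part in the marker values was not tested. Library 6 of ZBTB7A control stood apart from the other 4 for several markers. Gad2 was at 9851, 4060.2, 4255, 4611 and 5736 in ZBTB7A control and Slc32a1 at 10977, 4048, 2848, 3611 and 3313, in each case with library 6 first and far above the other 4. Vip was at 243, 686, 654, 686 and 609 and Adarb2 at 178, 318, 372, 297 and 381, with library 6 far below the others. Pvalb was at 271, 605, 1026, 1089.6 and 567, where libraries 15 and 23 exceeded every GFP control library and the other 3 lay below all of them.

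For the GABA genes the log2 fold changes without stress were -0.10 ± 0.14 for Gad1, -0.30 ± 0.22 for Gad2 and -0.33 ± 0.27 for Slc32a1. For the subtype markers they were -0.28 ± 0.28 for Pvalb, -0.18 ± 0.11 for Sst and -0.04 ± 0.29 for Vip. Without ZBTB7A control 6, Gad2 was at -0.52 and Slc32a1 at -0.67, while Pvalb turned to 0.03, Vip to 0.25 and Adarb2 to 0.08. Vip was also above 0 with edgeR (0.06) and DESeq2 (0.05), and Vip and Pvalb with array weights (0.14 and 0.05). Reln was the one marker above 0, at 3049, 2582, 2348, 2503 and 3029.7 in ZBTB7A control and 2475, 2344, 1804, 2647 and 2428 in GFP control. Its groups overlapped, with a log2 fold change of 0.21 ± 0.12 and values of 0.34, 0.17 and 0.18 in the runs. Sst was at 3446, 4667, 4111, 4272 and 3586 against 4188, 4580.4, 4039, 5693 and 4339, and was -0.35, -0.13 and -0.15 in the runs. ZBTB7A control 6 was the only ZBTB7A control library of the first run, so the first values of Reln and Sst rest on it. Lhx6 (-0.06 ± 0.09), Adarb2 (-0.11 ± 0.17) and Npy (-0.16 ± 0.12) completed the 9 below 0. No marker's groups were separate, against 0.226% of all genes.

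Under the ZBTB7A virus, no marker passed between stress and control, each with an adjusted p of 1.00. Gad2 had the largest log2 fold change, 0.46 ± 0.22, with group means of 7577 ± 1735 in ZBTB7A stress and 5703 ± 2408 in ZBTB7A control. The values for Slc32a1 (0.28 ± 0.27), Sst (0.23 ± 0.11), Npy (0.21 ± 0.12) and Gad1 (0.09 ± 0.14) were above 0. Vip (-0.24 ± 0.29), Pvalb (-0.14 ± 0.28), Lhx6 (-0.10 ± 0.09) and Reln (-0.08 ± 0.12) were below 0, and Adarb2 was at 0.00 ± 0.17. Without ZBTB7A control 6 the values were 0.68 for Gad2, 0.62 for Slc32a1, 0.21 for Gad1, -0.53 for Vip, -0.45 for Pvalb and -0.18 for Adarb2. The striatal level was higher by 0.82 in ZBTB7A stress, with differences of -0.56, 0.75 and 0.88 in the runs. All 17 of its genes (median 0.84) and all 6 oligodendrocyte genes (median 0.21) stood above 0. With that level as a covariate, Pvalb was at 0.11 and Vip at 0.04. Within the runs Sst was 0.59, 0.09 and 0.11, Npy 0.67, 0.14 and 0.14, Gad2 -0.15, 0.38 and 0.50 and Pvalb 0.96, 0.02 and -0.56. The first run held ZBTB7A control 6 as its only ZBTB7A control library. Each first value, also that of the striatal level, is thus set against this library alone. No marker's groups were separate, against 0.421% of all genes.

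The interaction asks whether the stress difference depended on the virus. It was 1.00 ± 0.30 for Gad2 (95% interval 0.38 to 1.61, adjusted p = 0.668) and 0.82 ± 0.37 for Slc32a1 (adjusted p = 0.668). Pvalb stood at -0.50 ± 0.38 (adjusted p = 0.736), Vip at -0.58 ± 0.39 (adjusted p = 0.704) and Gad1 at 0.25 ± 0.19 (adjusted p = 0.739), and none of the other 5 exceeded 0.11 in size. Leaving out ZBTB7A control 6 changed this call: Gad2 reached 1.22 (adjusted p = 0.0404) and Slc32a1 1.16 (adjusted p = 0.0492), 2 of 10 markers against 0.482% of all genes. Array weights called the same 2 genes, Gad2 at 1.24 (adjusted p = 0.0102) and Slc32a1 at 1.13 (adjusted p = 0.0171), against 12.6% of genes. In that fit ZBTB7A control 6 had the lowest weight of all libraries, 0.215, where the highest was 2.25. The weighted fit is therefore not separate from the fit that leaves this library out. Without the 5 far libraries, ZBTB7A control 6 among them, 0 genes passed with limma and 1743 had an unadjusted p under 0.05, with Gad2 at 1.03 (adjusted p = 0.261) and Slc32a1 at 0.97 (adjusted p = 0.291). With the striatal level as a covariate Gad2 was at 0.47 and Slc32a1 at 0.11, and neither passed.

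Across libraries, 4 of the 10 markers followed the striatal level, in opposite directions. In a limma fit with the groups adjusted, Gad2 rose by 0.23 (95% interval 0.12 to 0.34, adjusted p = 0.00653) on the log2 scale per unit of striatal level and Slc32a1 by 0.31 (95% interval 0.17 to 0.44, adjusted p = 0.00233). Pvalb had a slope of -0.31 (95% interval -0.45 to -0.17, adjusted p = 0.00327) and Vip one of -0.34 (95% interval -0.47 to -0.21, adjusted p = 7.57e-04), both falling as the striatal level rose. The other 6 did not pass: Adarb2 (-0.12, adjusted p = 0.112), Npy (-0.06, adjusted p = 0.338), Sst (0.05, adjusted p = 0.388), Gad1 (0.05, adjusted p = 0.481), Reln (-0.02, adjusted p = 0.742) and Lhx6 (-0.01, adjusted p = 0.861). These 4 of 10 stood beside 17.6% of all genes, 7.68% above 0 and 9.96% below 0. Leaving out single libraries gave 3 to 5 calls. Gad2 was lost without ZBTB7A control 6, and Adarb2 was gained without GFP control 10 or GFP stress 12. Over these fits the slope of Gad2 was 0.17 to 0.25, of Slc32a1 0.20 to 0.35, of Pvalb -0.34 to -0.23 and of Vip -0.39 to -0.27. Without the 5 far libraries Slc32a1 alone passed (0.41, adjusted p = 0.0440, against 1.34% of genes), with Gad2 at 0.30 (adjusted p = 0.318), Pvalb at -0.35 (adjusted p = 0.312) and Vip at -0.25 (adjusted p = 0.491).

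In plain correlations with the striatal level over the 23 libraries, 1 per marker, Gad2, Slc32a1, Pvalb and Vip had the largest r and rho in size. Gad2 had r = 0.79 (permutation p = 1e-05, the smallest 100000 permutations can give) and rho = 0.86 (permutation p = 1e-05). For Slc32a1, r was 0.78 (permutation p = 3e-05) and rho 0.81 (permutation p = 2e-05). Pvalb had r = -0.78 (permutation p = 4e-05) and rho = -0.79 (permutation p = 4e-05), and Vip r = -0.82 (permutation p = 1e-05) and rho = -0.81 (permutation p = 2e-05). Without the 2 libraries farthest from the median, GFP stress 12 and 20, r was 0.78, 0.75, -0.72 and -0.82 for these 4 genes in the same order. Within the runs r lay between 0.78 and 0.86 for Gad2, between 0.59 and 0.91 for Slc32a1, between -0.88 and -0.67 for Pvalb, and between -0.93 and -0.57 for Vip. Gad1 had r = 0.36 (permutation p = 0.0949, adjusted over the 10 markers 0.136) and rho = 0.50 (permutation p = 0.0153, adjusted 0.0306), with r from -0.26 to 0.84 in the runs. Npy had r = -0.49 (permutation p = 0.0184, adjusted 0.0368) and rho = -0.34 (permutation p = 0.115, adjusted 0.192), and r was 0.01 without the 5 far libraries. After adjustment, Gad1 thus passed for rho alone and Npy for r alone. Sst (-0.00), Reln (0.03), Lhx6 (-0.20) and Adarb2 (-0.36) had permutation p-values of 0.997, 0.893, 0.360 and 0.0873 for r.

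**Figure D4:**
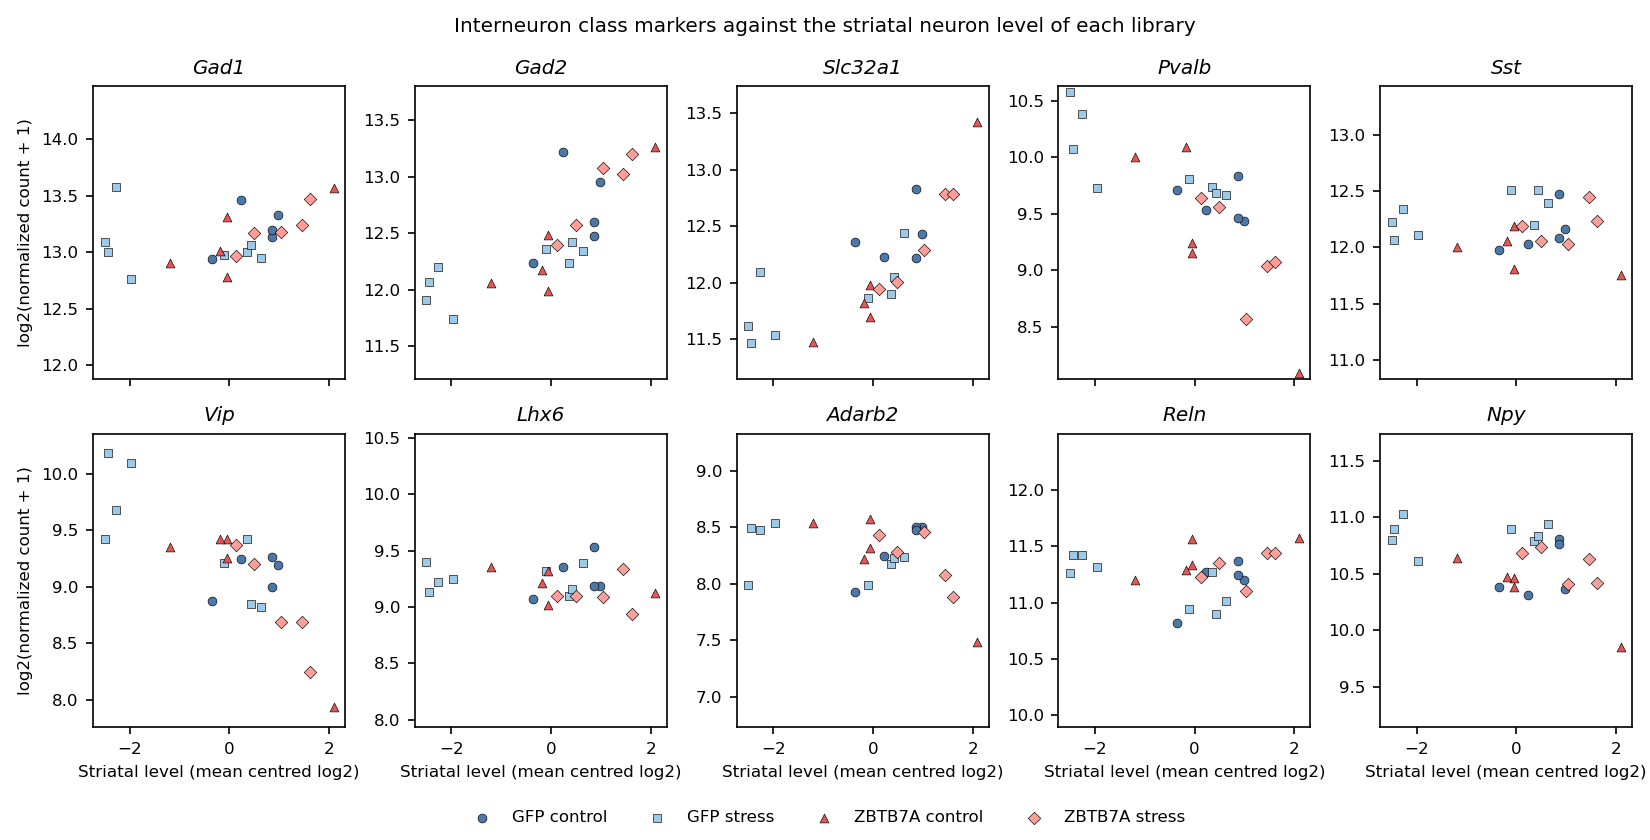
Each marker's log2(normalized count + 1) (y axis) against the striatal level of the library (x axis, mean centred log2 of 17 genes), one point per library, coloured by group. Gad2 and Slc32a1 climb from left to right, Pvalb and Vip descend, and Sst, Lhx6 and Reln show no slope that passed.

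Other interneuron genes were set against the striatal level in the same fit, in which 7.68% of all genes rose with it and 9.96% fell. Of 9 transcription factors of forebrain GABA neurons, 6 rose with it (among them Dlx2, Dlx5, Dlx6, Sp9 and Gsx2, factors of GABA neuron birth and differentiation) and 0 fell. Of 17 further genes listed for medial ganglionic eminence interneurons, 4 rose (Tac1 with a slope of 0.76, Nkx2-1 1.29, Nos1 0.17 and Chodl 0.51) and 5 fell. The 5 were Kcnc1 and Kcnc2, the potassium channels of fast spiking, with Satb1, Maf and Btbd11. Of 16 genes listed for caudal ganglionic eminence interneurons, 2 rose and 3 fell (Lamp5, Crh and Egln3). The 2 were Chat, which makes acetylcholine, with a slope of 1.27, and the transcription factor Prox1 with 0.20. Of 6 genes of GABA transport and breakdown, Abat, which degrades GABA, rose and Slc6a12 fell. Of 9 other interneuron genes, Slc17a8 and Zcchc12 rose, and Cck and Igf1 fell. Beside these stand 17 of 17 striatal neuron genes, which define the level and had a median slope of 0.97. So do 6 of 6 oligodendrocyte genes above 0, and 1 above and 6 below 0 of 12 cortical excitatory neuron genes. Which cells of the tissue gave the RNA of the listed interneuron genes was not tested, so a rise is not read as one of cortical interneurons.

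None of the genes of these interneuron lists passed in a group comparison. In ZBTB7A stress against GFP stress all 9 GABA neuron transcription factors had log2 fold changes above 0 (median 0.56), and in GFP stress against GFP control all 9 were below 0 (median -0.38). Dlx6 was at 0.87 ± 0.32 (SE, adjusted p = 0.234) in the first, and Gsx2 at -1.47 ± 0.54 (SE, adjusted p = 0.368) in the second. Gsx2 was low, at 7.73 ± 5.33 normalized counts (SD) in GFP stress and 19.1 ± 6.76 in GFP control. In the virus comparison under stress, Abat was at 0.41 ± 0.12 (SE, adjusted p = 0.183) and Aldh5a1, the next enzyme of GABA breakdown, at 0.20 ± 0.06 (SE, adjusted p = 0.183). Chat was at 2.53 ± 0.78 (SE, adjusted p = 0.184) and Slc17a8, a vesicular glutamate transporter, at 0.64 ± 0.21 (SE, adjusted p = 0.199). Zcchc12 was at 0.74 ± 0.25 (SE, adjusted p = 0.206) in the same comparison. Under stress with GFP, Nkx2-1, the factor that specifies the medial eminence, was at -2.55 ± 0.82 (SE, adjusted p = 0.326), from 17.04 ± 16.2 normalized counts in GFP stress and 70.8 ± 38.9 in GFP control. In the same comparison Cort, a peptide of some Sst and Pvalb cells, was at 0.57 ± 0.19 (SE, adjusted p = 0.326). Sncg, a synuclein of some interneurons, was at -0.93 ± 0.29 (SE, adjusted p = 0.326). Genes of the medial eminence had 5 of 17 above 0 in the virus comparison under stress and those of the caudal eminence 7 of 16, against 8429 of 16385 among all genes.

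After centring on group means, 10 of the 45 pairs of markers were positively and 6 negatively correlated at an adjusted permutation p under 0.05. Most of these calls were lost without ZBTB7A control 6, where 3 pairs were positive and 1 negative, and of these 2 and 1 had been called in all libraries. No share over pairs of other genes was computed, so the counts are not read as particular to these markers. The pairs were not adjusted for the striatal level, whose part in them was not tested. After the same centring, that level had r = 0.68 with Gad2, 0.73 with Slc32a1, -0.71 with Pvalb, -0.77 with Vip and -0.46 with Adarb2. The remaining markers lay between -0.31 and 0.28. The GABA-making pair Gad1 and Gad2 had r = 0.75 (rho 0.74, permutation p = 4e-05, adjusted over the 45 pairs 9e-04). Gad2 and Slc32a1 had r = 0.67 (rho 0.60, permutation p = 6.70e-04, adjusted over the 45 pairs 0.00377). On the negative side, Slc32a1 and Vip had r = -0.84 (rho -0.81, permutation p = 1e-05, adjusted over the 45 pairs 4.50e-04), and Gad2 and Pvalb r = -0.69 (rho -0.59, permutation p = 2.60e-04, adjusted over the 45 pairs 0.00270). Pvalb and Vip, from different eminences, had r = 0.63 (rho 0.56, permutation p = 0.00154, adjusted over the 45 pairs 0.00693). Within lineages, Vip and Adarb2 of the caudal eminence had r = 0.74 (rho 0.68, permutation p = 1.20e-04, adjusted over the 45 pairs 0.00180), and Sst and Lhx6 of the medial eminence r = 0.60 (rho 0.54, permutation p = 0.00236, adjusted over the 45 pairs 0.00965). Pvalb and Lhx6 had r = 0.17 (rho 0.22, permutation p = 0.440, adjusted over the 45 pairs 0.606). Without ZBTB7A control 6, r was 0.66 for Gad1 with Gad2 (adjusted permutation p = 0.0105), -0.73 for Slc32a1 with Vip (adjusted permutation p = 0.00450) and 0.59 for Sst with Lhx6 (adjusted permutation p = 0.0412). The pairs lost were Gad2 with Slc32a1 at 0.42 (adjusted permutation p = 0.180), Gad2 with Pvalb at -0.49 (adjusted permutation p = 0.117), Pvalb with Vip at 0.39 (adjusted permutation p = 0.199), Vip with Adarb2 at 0.56 (adjusted permutation p = 0.0590) and 9 others. Slc32a1 with Sst was gained, at 0.71 (adjusted permutation p = 0.00743) against 0.22 in all libraries. Without the 2 libraries farthest from their group mean for the first-named gene, which differ from gene to gene, r was 0.81 for Gad1 with Gad2, 0.58 for Gad2 with Slc32a1, -0.77 for Slc32a1 with Vip, 0.58 for Vip with Adarb2 and 0.41 for Sst with Lhx6.

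**Figure D5:**
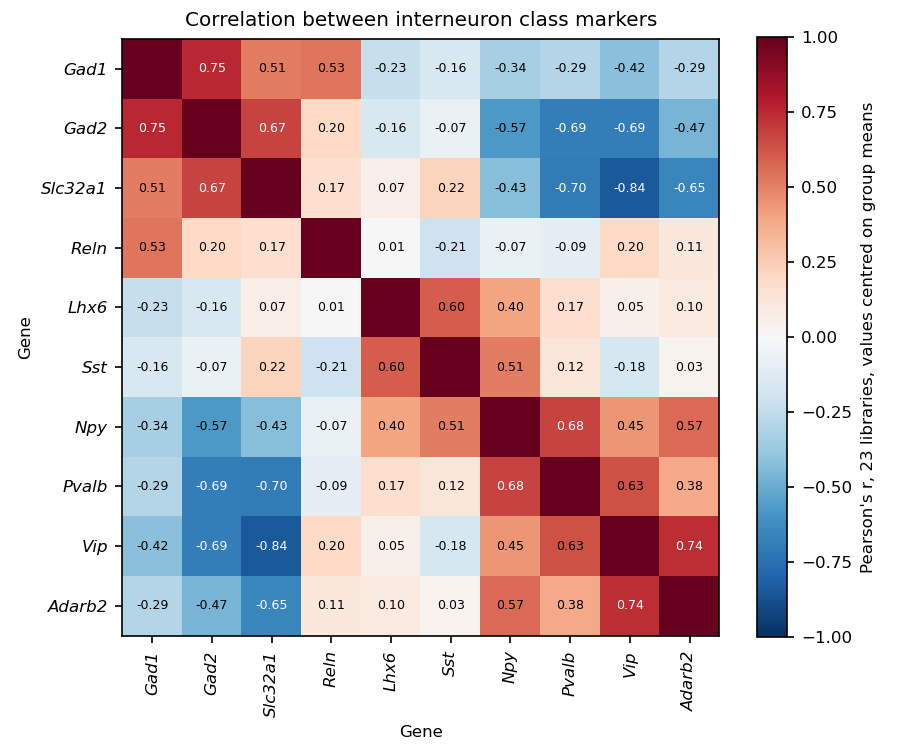
Pearson's r between the markers over 23 libraries, with log2 values centred on group means and not adjusted for the striatal level (colour and printed value). Gad2 and Slc32a1 are positive with each other and negative against Pvalb and Vip, and Sst with Lhx6 stands at 0.60.

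Log2 ratios of marker RNA were taken within each library, and they do not give numbers of cells. The log2 ratio of Lhx6 to Adarb2, medial against caudal, was 0.98 ± 0.43 in ZBTB7A control, 0.88 ± 0.27 in ZBTB7A stress, 0.93 ± 0.22 in GFP control and 0.98 ± 0.29 in GFP stress (SD, n = 5, 5, 5 and 8). These means lay within 1 SD of each other. Gad2 against Gad1 was -0.72 ± 0.23, -0.35 ± 0.22, -0.52 ± 0.20 and -0.90 ± 0.29 in the same order. Pvalb against Sst was -2.65 ± 0.71, -3.02 ± 0.47, -2.55 ± 0.32 and -2.34 ± 0.43, and Sst against Lhx6 2.76 ± 0.11, 3.08 ± 0.14, 2.88 ± 0.12 and 3.05 ± 0.18. The ratios were not tested, and they were not adjusted for the striatal level, with which Gad2 rose and Pvalb fell.

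The genes most like each marker were taken by Pearson's r of group-centred log2 values over the 23 libraries, among 13406 other genes with a mean of 50 or more, and carry no test. Gad2 was matched by Abat (0.96), Rbms3 (0.94) and Inpp5f (0.93), and Slc32a1 by Prrt4 (0.94), Lmo2 (0.92) and Cacng4 (0.92). Pvalb ran with Vamp1 (0.94), Plcxd2 (0.91) and Hapln4 (0.90), of which Vamp1 is a synaptic vesicle protein and Hapln4 a link protein of the matrix around fast-spiking cells. Vip ran with Tmem200a (0.96), Nol4 (0.94) and Mef2c (0.93), and Adarb2 with Nov (0.83), Htr3a (0.82) and Dab1 (0.82), where Htr3a is the serotonin receptor subunit of caudal eminence interneurons. Genes like Npy included Pde4a (0.84) and Snx11 (0.83), and Gad1 was matched by Sdhc (0.87), Slc4a4 (0.86) and Fam196b (0.85). Values were lower for Sst, matched by Zfp689 (0.80), Susd1 (0.79) and Galnt14 (0.79), for Lhx6, by Ankrd35 (0.77), Ptdss2 (0.76) and Tmem179 (0.74), and for Reln, by Fam118b (0.77), Slc25a25 (0.74) and Gabra2 (0.73).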

How the data were processed

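Polyadenylated RNA was sequenced after a TruSeq v2 preparation, per the labels' protocols. The authors deposited normalized counts, which are reads scaled by 1 factor for each library (a signal, not corrected for gene length). Per the submitters' processing notes, the tools were DESeq2 2.11.40.6, featureCounts 2.0.1 and HISAT2 2.1.0, and the builds mm10 and mm9 are named with no role. In every library 100% of the deposited values were whole multiples of 1 step within 0.02 reads, so whole reads were recovered. All 23 columns were used. After 428 identical repeats were removed from 27606 entries, 27178 genes remained, 4174 of them at 0 in every library and 958 without a symbol. Normalized totals were 21.5 to 25.2 M, no 2 libraries were identical, and pairwise r of log2 values was 0.944 to 0.993 across genes.

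The test took genes at 10 or more in 5 or more libraries, on log2(normalized count + 1), so fold changes of low genes are understated. limma 3.58.1 (R 4.3.3, trended and robust) fitted 4 group means, with Benjamini-Hochberg adjustment over 16385 genes, two-sided. Alternatives were a pseudocount of 5, a mean of 50 or more, no filter on low values, DESeq2 1.42.0 or edgeR 4.0.16 on recovered reads, TMM scaling, array weights, the striatal level as a covariate, the fit without 5 libraries far in that level, number run as a covariate, only the groups compared, an adjusted p under 0.1 and each library left out. The combination of array weights with the striatal level, the alternatives for the slope on that level, and the pair correlations without ZBTB7A control 6, were chosen after seeing the data. The striatal level is the mean over 17 genes of log2 value minus the gene's mean. Permutation tests used 100000 resamples. For the pairs of markers, values centred on the 4 group means were permuted freely over all 23 libraries. This does not count the means removed, so p-values of pairs can be somewhat too small. Exon lengths came from GENCODE M21 and promoters from RefSeq GRCm38.p6. On simulated counts, 57% of 1.5-fold and 90% of 2-fold changes were recovered for the virus comparison under stress, with 8 false calls. Over the 4 comparisons recovery was 52% to 65% and 79% to 90%. Those counts were drawn for each gene independently, without a tissue gradient shared by genes, so these shares do not give the power in the real libraries. The named genes were the 10 markers, Zbtb7a, Gfap, the 2 genes of smallest p per interneuron list, and the 3 genes most like each marker, some of which are not reported here. The markers and lists were chosen with earlier results of these data known.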

Additional observations from a re-analysis of the deposited data

Results flagged for a closer look

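There were 4 values that stood far from the rest of their group, by Dixon's gap test at 95% among 44 groups examined, of which chance picks out about 1 in 20. GFP stress 21 had 12249.7 normalized counts of Gad1, where the other 7 ran from 6970.2 to 8719.9. ZBTB7A control 6 had 9851 of Gad2 (others 4060.2 to 5736), 10977 of Slc32a1 (others 2848 to 4048) and 243 of Vip (others 609 to 686). ZBTB7A control 6 had the highest striatal level (2.09) and septal level (1.84) of all libraries and the lowest cortical excitatory neuron level (-1.14). GFP stress 21 had the highest olfactory bulb level (3.39). The part of these levels in the 4 values was not tested.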

How the results depend on the processing

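No paired analysis was possible because no replicate number is shared between the groups. A pseudocount of 5, a mean of 50 or more, no filter on low values and TMM scaling turned no marker's sign and added no call. DESeq2 called 46 genes for the virus with stress, 39 for stress under GFP, 1 for stress under ZBTB7A and 3 for the interaction. Array weights called 2287, 668 and 2068 genes for the virus with stress, stress under GFP and the interaction, and 5, 2 and 2 of the markers, and with the striatal level added 1 gene for the virus with stress. Only the groups compared gave 2 genes for the virus with stress, and an adjusted p under 0.1 gave 1 for the interaction. Without the 5 far libraries 1 marker passed on the striatal slope. Log2 fold changes that turned sign under the striatal covariate were Slc32a1 -0.098, Vip 0.030 and Adarb2 0.19 for the virus with stress, Pvalb -0.11, Vip -0.16 and Reln -0.021 for stress under GFP, Pvalb 0.11 and Vip 0.039 for stress under ZBTB7A and Pvalb 0.22, Sst -0.026, Vip 0.20 and Npy 0.023 for the interaction. With array weights added they were Adarb2 0.20 for the virus with stress, Pvalb -0.11, Vip -0.24 and Reln -0.080 for stress under GFP, Adarb2 -0.013 and Reln 0.0049 for stress under ZBTB7A and Pvalb 0.049, Sst -0.14, Vip 0.19 and Reln 0.085 for the interaction. Without the 5 far libraries they were Pvalb 0.026, Vip 0.25 and Adarb2 0.080 for the virus without stress, Adarb2 0.069 for the virus with stress, Vip -0.039 and Reln -0.15 for stress under GFP, Adarb2 -0.18 for stress under ZBTB7A and Sst -0.081, Adarb2 -0.011 and Reln 0.12 for the interaction. Under array weights they were Pvalb 0.051 and Vip 0.14 for the virus without stress, Lhx6 0.019 for stress under GFP and Adarb2 -0.11 for stress under ZBTB7A. Under edgeR they were Vip 0.056 for the virus without stress and Adarb2 -0.032 for stress under ZBTB7A, under DESeq2 Vip 0.050 for the virus without stress and Adarb2 -0.034 for stress under ZBTB7A, and with the number run Lhx6 0.0036 and Reln -0.0043 for stress under GFP. The correlation with the striatal level turned to Sst 0.28 and Reln -0.12 after centring on groups, and to Sst 0.37 and Npy 0.0078 without the 5 far libraries.

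Leaving out single libraries gave, for the virus without stress, -0.47 to 0.026 for Pvalb, -0.12 to 0.25 for Vip and -0.21 to 0.080 for Adarb2, each turned without ZBTB7A control 6, and -0.11 to 0.0073 for Lhx6. For the virus with stress it gave 0 to 3 genes called (3 without GFP stress 13) and -0.096 to 0.047 for Adarb2. For stress under GFP it gave -0.070 to 0.045 for Lhx6 and -0.080 to 0.058 for Reln, and under ZBTB7A -0.45 to 0.053 for Pvalb and -0.18 to 0.088 for Adarb2. For the interaction it gave 0 to 79 genes and 0 to 2 markers, both highest without ZBTB7A control 6, with -0.0013 to 0.14 for Sst, -0.12 to 0.17 for Adarb2 and -0.14 to 9.5e-05 for Reln. The cause of these changes was not tested. Adarb2 had as few as 102 reads in a library, the fewest of the markers, which limits the precision of its values.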
